A study of Mus musculus with 18 samples.

Results

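The comparison described here sets 6 RNA-seq libraries of spinal cord microglia from EAE mice given metformin (replicates 5, 6, 13, 14, 21 and 22) against 6 libraries from healthy mice with control treatment (replicates 3, 4, 11, 12, 19 and 20), which are 12 of the 18 libraries of the series. It asks how the microglial RNA of mice with disease and drug still differed from that of healthy mice. Experimental autoimmune encephalomyelitis (EAE) is an immune-mediated disease of the spinal cord used as a model of multiple sclerosis, and the series as a whole concerns Kdm6a, an X-linked histone demethylase, in microglia. All mice were female and labelled WT, and the RNA is described as microglial, from Tmem119-Cre:RiboTag mice. In that system Cre, driven by the promoter of the microglial gene Tmem119, switches on a tag on the ribosomal protein Rpl22. The labels name total RNA as the molecule, mention no pull-down of tagged ribosomes, and give no age, metformin dose or time. The remaining 6 libraries, of microglia from control-treated EAE mice (numbered 1, 2, 9, 10, 17 and 18), are used only to place the metformin values. Disease and drug changed together between metformin EAE and healthy mice, and no healthy mice with metformin are among the libraries, so disease and drug cannot be told apart in this contrast. Since no label states whether a replicate is an animal of its own, p-values here reflect only how far these libraries spread, which may be technical.

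Microglia are the resident macrophages of the brain and spinal cord. In healthy tissue they express a homeostatic set of genes, among them the purine receptor P2ry12 and the transcription factor Sall1. In EAE they lower that set and raise genes for lipid handling, lysosomes, antigen presentation and the response to interferons. Metformin is a biguanide used against type 2 diabetes and is known to inhibit respiratory complex I and to raise the activity of the energy-sensing kinase AMPK.

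Values are CPM, a gene's read count relative to its library's total, scaled by TMM factors. Where 3 CPM values are given for a group, they are its lowest, median and highest library, n = 6 per group. Fold changes are edgeR log2 changes with standard errors, and adjusted p-values are edgeR quasi-likelihood p-values with Benjamini-Hochberg adjustment over 16740 genes, with calls made under 0.05. Totals of the 12 libraries ran from 46174795 to 55980674 counts. Values well under 1 CPM rest on few counts. The first principal component held 58.3% of the variance. On it 5 metformin EAE libraries lay between 9.35 and 49.5, the control EAE libraries between 55.7 and 86.0, and the healthy libraries between -90.9 and -77.5. Metformin EAE replicate 22 lay at -69.7, next to the healthy libraries. Its Apoe share of all counts was 0.834%, against 6.71% to 9.24% in the other 5 metformin EAE libraries and 0.216% to 0.550% in healthy libraries. Mitochondrially encoded genes made up 0.884% of its counts, against 0.236% to 0.714% in healthy libraries. Because replicate 22 stood apart, results are given with it and without it.

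**Figure D1:**
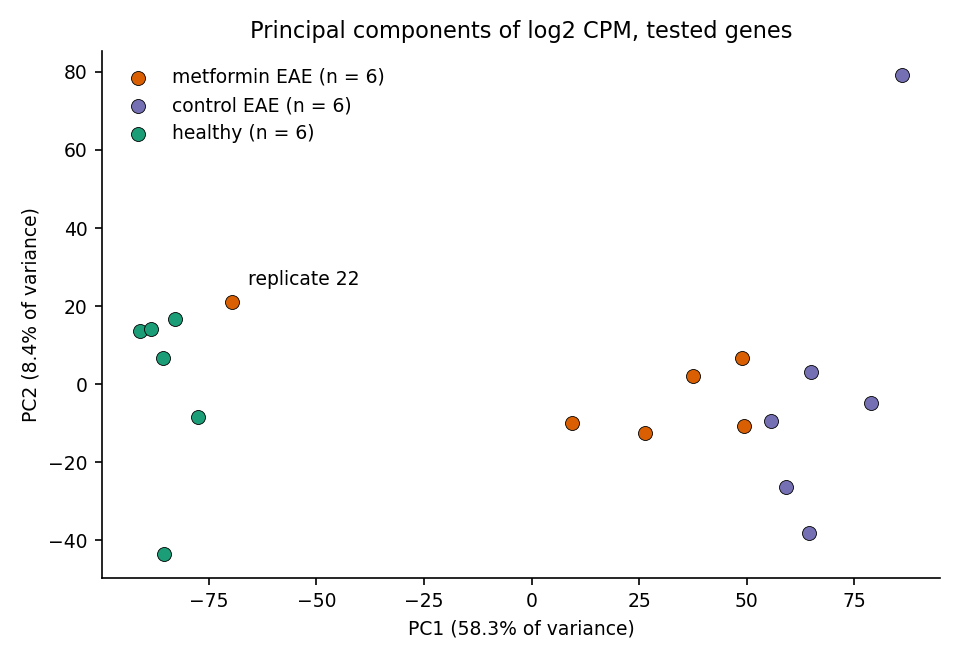
Principal components 1 and 2 (horizontal and vertical axis, share of variance in the labels) of log2 CPM over the tested genes, with 1 point per library and colours for metformin EAE, control EAE and healthy mice. Metformin EAE replicate 22, at -69.7 on the first component, lies beside the healthy libraries, and the other 5 lie between them and control EAE.

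Metformin EAE microglia differed from healthy microglia in many genes. In metformin EAE libraries 3405 genes were higher than in healthy libraries (20.3% of 16740 tested) and 2730 were lower (16.3%), of which 1217 higher genes (7.27%) and 467 lower genes (2.79%) changed at least 2-fold. Without replicate 22, 4031 genes were higher (23.9% of 16875 tested) and 3790 lower (22.5%), with 1438 (8.52%) and 1085 (6.43%) past 2-fold. Leaving that library out therefore raised the count of genes lower by at least 2-fold from 467 to 1085. For the same healthy libraries, control EAE had 5314 higher genes (31.7%) and 5138 lower genes (30.7%). Tested directly, metformin EAE was above control EAE in 2087 genes (12.5%) and below it in 2024 (12.1%), or in 1435 (8.5%) and 1661 (9.84%) without replicate 22. These shares over all genes are the background for the counts of list members below. The split between higher and lower depended on scaling. With library totals alone in place of TMM, 1927 genes were higher and 4786 lower in metformin EAE than in healthy libraries, and the median log2 change of all genes was -0.20 in place of -0.00092.

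Full separation of the 2 groups was less common than a call. All 6 metformin EAE libraries lay above all 6 healthy libraries in 1142 genes (6.82%) and below them in 1025 (6.12%), and without replicate 22 these were 3164 (18.9%) and 2778 (16.6%). Replicate 22 lay within the healthy range in 10427 genes (62.3%), while the other 5 metformin EAE libraries did so in 35.2% to 46.6% of genes. The genes in which replicate 22 too was outside the healthy range are described with their groups below.

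Markers of several cell types other than microglia differed between metformin EAE and healthy libraries. They are given here because the spinal cord RNA could hold them. In such bulk libraries fewer cells of a type and less RNA per cell cannot be told apart. Summed over 10 genes, markers of monocyte-derived cells came to 166 to 545 CPM in 5 metformin EAE libraries and 11.2 in replicate 22, against 5.89 to 14.1 CPM in healthy libraries. Fn1, fibronectin, made up most of that sum, at 6.78, 279 and 529 CPM in metformin EAE libraries against 1.95, 3.79 and 8.39 CPM in healthy libraries (log2 change 5.96 ± 0.70, adjusted p = 1.4e-05). Of the 8 tested members 4 rose (Fn1, Plac8, F13a1 and Nos2) and S100a4 fell, a call that was lost without replicate 22 (log2 change -0.76, adjusted p = 0.068 by edgeR). The other members of the list were not called or did not pass the filter on low counts. The 7 border macrophage markers summed to 22.1 to 45.2 CPM, to 3.57 CPM in replicate 22, and to 0.855 to 4.58 CPM in healthy libraries, with Mrc1, Folr2 and Ms4a7 the members that rose. Ms4a7 was at 17.96 to 39.5 CPM in 5 metformin EAE libraries and at 0.254 in replicate 22, against 0.09504 to 0.495 CPM in healthy libraries. Replicate 22 was thus within the healthy range for both summed lists.

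Markers of other blood-borne cells were at low levels. Of 6 tested T cell markers, Cd3e, Cd3g, Cd4, Lat and Il2rb rose and Thy1, which neurons also express, fell. Cd3e, a subunit of the T cell receptor complex, was at 0.0362, 0.538 and 0.826 CPM in metformin EAE libraries and was detected in 1 healthy library, at 0.0354 CPM, close to the lowest metformin EAE value, in replicate 22. The plasma cell genes Igkc and Jchain and the neutrophil genes S100a8 and Mmp8 rose too, and Ighm fell (Cd79b as well without replicate 22). Metformin EAE replicate 6 held 63.6 CPM of Igkc and the other 5 held 0.344 to 11.7 CPM, against 0 to 0.568 CPM in healthy libraries. Summed neutrophil markers were at 1.69 to 5.48 CPM, at 1.11 CPM in replicate 22, and at 0.143 to 1.91 CPM in healthy libraries. The defining markers Trac, Ly6g, Pf4 and Cldn5 were listed at 0 in all 18 libraries, but so were genes that every cell uses, such as Rps18 and Atp5a1, so those zeros are not read as absence. Of 6 tested dendritic cell markers Zbtb46 and Clec9a rose and Flt3 and Batf3 fell, and no erythroid marker passed. The call on Clec9a, a receptor of dendritic cells, was lost without metformin EAE replicate 21 (adjusted p = 0.11 by edgeR) and without healthy replicate 19 (adjusted p = 0.052).

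Among cells of the spinal cord itself, markers of matrix-making cells rose and markers of neurons and oligodendrocytes fell. Of 10 mural cell and fibroblast markers 7 rose, among them the collagen gene Col3a1 at 2.99, 58.9 and 101 CPM in metformin EAE libraries against 1.06, 1.59 and 4.29 CPM in healthy libraries (log2 change 4.60 ± 0.61, adjusted p = 3.5e-05), and Rgs5 fell. Their sum was 262 to 548 CPM in 5 metformin EAE libraries and 44.96 in replicate 22, against 23.9 to 97.6 CPM in healthy libraries. Of 16 neuron markers 10 fell and none rose, and of 10 oligodendrocyte markers 8 fell and none rose. The neuron sum was 413 to 562 CPM in 5 metformin EAE libraries and 1186 in replicate 22, and 851 to 1137 CPM in healthy libraries, so replicate 22 lay just above the healthy range. Among 10 astrocyte markers Aldh1l1 rose and 5 fell, among 7 oligodendrocyte precursor markers Pdgfra and Cspg4, which the mural list also holds, rose and Olig1, Olig2 and C1ql1 fell, Flt1 was the endothelial marker that rose, and Drp2 the Schwann cell marker that fell. The part these cells play in the results below was not tested.

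**Figure D2:**
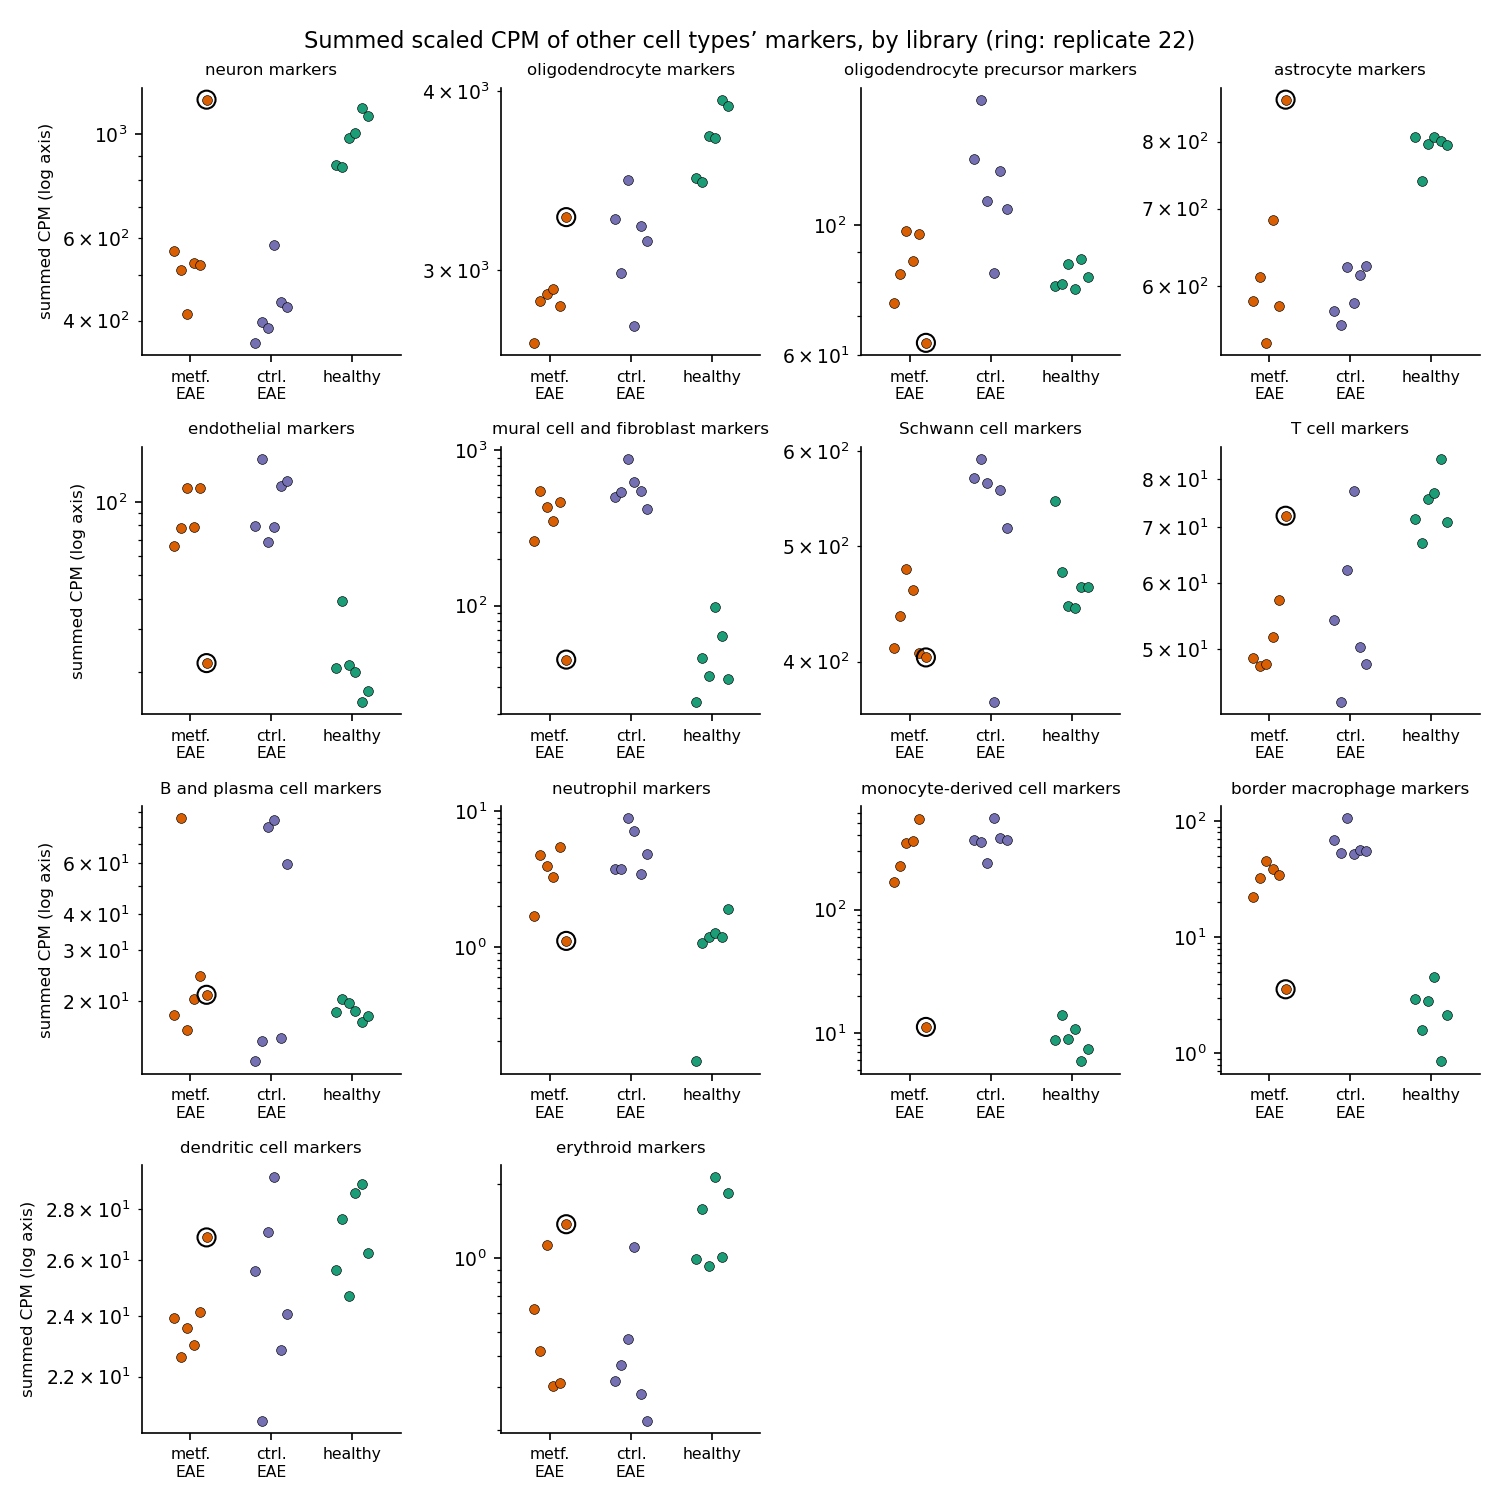
Summed CPM (log axis) of the markers of 14 other cell types in each library, with metformin EAE left, control EAE in the middle and healthy right, and replicate 22 ringed. Replicate 22 lies within the healthy range for the monocyte-derived, border macrophage, neutrophil, endothelial and mural cell lists. The other 5 metformin EAE libraries lie above that range for the monocyte-derived, border macrophage, endothelial and mural cell lists.

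Genes of the interferon-gamma response and of antigen presentation were raised in metformin EAE, replicate 22 included, and Cxcl9, Iigp1, Cd74 and Ciita stood among the 12 largest rises. Of 13 tested interferon-gamma response genes 11 rose and none fell, with a median log2 change of 2.15 (-0.00092 over all genes tested). Cxcl9 (chr5:92321347-92328079, GRCm38), a chemokine that draws activated T cells, was at 42.3, 128 and 386 CPM in metformin EAE libraries against 0.496, 0.644 and 1.36 CPM in healthy libraries (log2 change 7.70 ± 0.67, adjusted p = 1.0e-06). Replicate 22 was the lowest metformin EAE library, and at 42.3 CPM it was still far above the highest healthy library. The 12 largest rises were picked from genes with every metformin EAE library above every healthy one. Their separation was therefore required by that choice. Iigp1, a GTPase that attacks the vacuoles of intracellular parasites, was at 10.8, 22.5 and 135 CPM in metformin EAE libraries against 0.177, 0.299 and 0.637 CPM in healthy libraries (log2 change 6.87 ± 0.89, adjusted p = 3.0e-05). Gbp2, a guanylate-binding protein of the same defence, was at 76.6, 121 and 481 CPM in metformin EAE libraries against 6.92, 8.605 and 11.5 CPM in healthy libraries (log2 change 4.36 ± 0.52, adjusted p = 1.5e-05). For Iigp1 and Gbp2 replicate 21 stood above the others and replicate 22 was the lowest, without overlap with healthy libraries. Cd274, which encodes the T cell inhibitor PD-L1, rose as well (log2 change 2.37 ± 0.29, adjusted p = 1.5e-05). Control EAE had 11 higher genes in this list and a median of 2.11. None of the 13 was called between metformin and control EAE, with or without replicate 22 (median log2 change 0.25 and 0.42).

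Genes of antigen presentation were raised as well. Ciita (chr16:10480059-10528418), the transactivator that switches on MHC class II genes, was at 4.78, 16.6 and 56.97 CPM in metformin EAE libraries against 0.0482, 0.3002 and 0.642 CPM in healthy libraries (log2 change 5.93 ± 0.63, adjusted p = 6.4e-06). Cd74 (chr18:60803848-60812652), the invariant chain that escorts MHC class II molecules, was at 915, 7591 and 12761 CPM in metformin EAE libraries against 52.8, 67.4 and 76.4 CPM in healthy libraries (log2 change 6.82 ± 0.51, adjusted p = 2.2e-07). Replicate 22, the lowest of the 6, did not overlap the healthy libraries for either gene, which the choice of the largest rises required. The annotated microRNA Mir5107 lies inside Cd74 on the same strand, so its rise (log2 change 6.86 ± 0.56, adjusted p = 6.2e-07) cannot be told apart from that of Cd74. Cd40 (log2 change 4.12 ± 0.50, adjusted p = 1.1e-05), Ctss and Cd86 also rose and Cd80 fell, so 5 of 6 tested class II members rose. Cd86, a costimulator of T cells, was higher in metformin than in control EAE (log2 change 0.43 ± 0.08, adjusted p = 0.0024), while control EAE was not called against healthy (log2 change -0.11, adjusted p = 0.25 by edgeR). The call on Cd86 against healthy was lost with library totals alone (adjusted p = 0.28 by edgeR). The class II heavy and light chain genes H2-Aa, H2-Ab1 and H2-Eb1 were listed at 0 in all 18 libraries and give no value.

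All 6 tested class I members rose: B2m, Nlrc5, Psmb10, Erap1, H2-Q4 and H2-T23, with a median log2 change of 1.36, and 4 of them with library totals alone. Nlrc5, the class I transactivator, was at 24.4, 37.1 and 64.8 CPM in metformin EAE libraries against 1.79, 4.28 and 4.49 CPM in healthy libraries (log2 change 3.45 ± 0.24, adjusted p = 2.7e-08). B2m, the light chain of class I molecules, was at 4130.3, 7139 and 7304 CPM in metformin EAE libraries against 2179, 2545 and 2692 CPM in healthy libraries (log2 change 1.40 ± 0.14, adjusted p = 1.3e-06). Neither gene overlapped between the groups, and both had their lowest metformin EAE value in replicate 22. H2-Q4 has near-identical relatives that could share its reads, so its value (log2 change 2.64 ± 0.19, adjusted p = 2.7e-08) is uncertain. Tap1, Tap2, Psmb8, Psmb9 and H2-K1 were listed at 0 throughout.

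Type I interferon response genes, which defend against viruses, rose nearly as a whole: 25 of 29 passed as higher and none as lower, with a median log2 change of 1.42 (1.48 without replicate 22, and 1.49 in control EAE). To show the promoters behind these genes, the 20 members with a RefSeq window (GRCm38.p6, 250 bases before to 50 after the start) were searched on both strands for the core letters of an interferon-stimulated response element, GAAA and again GAAA with any 2 bases between them. The core was present in 11 of the 20 members (55.0%), and in 3.99% of 27025 genes with a window. A match describes the letters and not a bound site. The windows of the 3 matching members with the smallest p-values are shown 5′ to 3′ on the gene's strand, with the match in capitals (in Stat2 it lies on the opposite strand, as TTTC, 2 bases and TTTC).
Oas3, chr5:120777610-120777909, minus strand: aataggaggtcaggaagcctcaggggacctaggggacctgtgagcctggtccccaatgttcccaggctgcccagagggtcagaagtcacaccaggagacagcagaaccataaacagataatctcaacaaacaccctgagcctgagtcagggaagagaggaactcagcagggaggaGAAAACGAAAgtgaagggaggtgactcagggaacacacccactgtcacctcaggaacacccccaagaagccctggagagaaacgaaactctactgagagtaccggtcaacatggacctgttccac
Oas1a, chr5:120907476-120907775, minus strand: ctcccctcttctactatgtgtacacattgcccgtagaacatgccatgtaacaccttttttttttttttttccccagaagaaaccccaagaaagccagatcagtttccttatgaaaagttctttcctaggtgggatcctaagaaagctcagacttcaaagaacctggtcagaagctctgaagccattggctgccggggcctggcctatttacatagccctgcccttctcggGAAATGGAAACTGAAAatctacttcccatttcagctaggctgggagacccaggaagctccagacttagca
Stat2, chr10:128270248-128270547, plus strand: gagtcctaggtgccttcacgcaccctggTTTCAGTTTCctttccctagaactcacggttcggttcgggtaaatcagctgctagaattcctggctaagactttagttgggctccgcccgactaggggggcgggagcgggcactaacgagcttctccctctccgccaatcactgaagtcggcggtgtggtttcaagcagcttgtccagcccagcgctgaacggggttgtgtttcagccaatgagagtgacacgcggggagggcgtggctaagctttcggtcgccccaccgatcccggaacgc

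The match begins 75 bases before the start in Oas3 and 222 bases before it in Stat2, and Oas1a holds a pair of overlapping matches that begin 20 and 14 bases before the start. Oas3 and Oas1a make the oligoadenylate messenger that activates RNase L against viral RNA, and Stat2 is a subunit of the factor that binds the element. Oas3 was at 4.35, 17.5 and 28.6 CPM in metformin EAE libraries against 0.253, 0.681 and 1.67 CPM in healthy libraries (log2 change 4.48 ± 0.50, adjusted p = 9.1e-06). Oas1a was at 11.4, 21.6 and 27.2 CPM in metformin EAE libraries against 2.58, 5.92 and 8.03 CPM in healthy libraries (log2 change 1.91 ± 0.25, adjusted p = 1.9e-05). For Stat2 the values were 59.9, 82.3 and 115 CPM in metformin EAE libraries and 28.3, 33.5 and 42.9 CPM in healthy libraries (log2 change 1.31 ± 0.18, adjusted p = 2.1e-05). In each of these genes every metformin EAE library, replicate 22 included, lay above every healthy library. Oasl2 (log2 change 2.62 ± 0.27, adjusted p = 3.4e-06) and the RNA sensor Dhx58 (log2 change 1.14 ± 0.14, adjusted p = 7.0e-06) were likewise separated from healthy in all 6 libraries. Irf1, an interferon-induced transcription factor, was separated too, at 129, 146 and 334 CPM in metformin EAE libraries against 54.9, 56.1 and 62.7 CPM in healthy libraries.

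**Figure D3:**
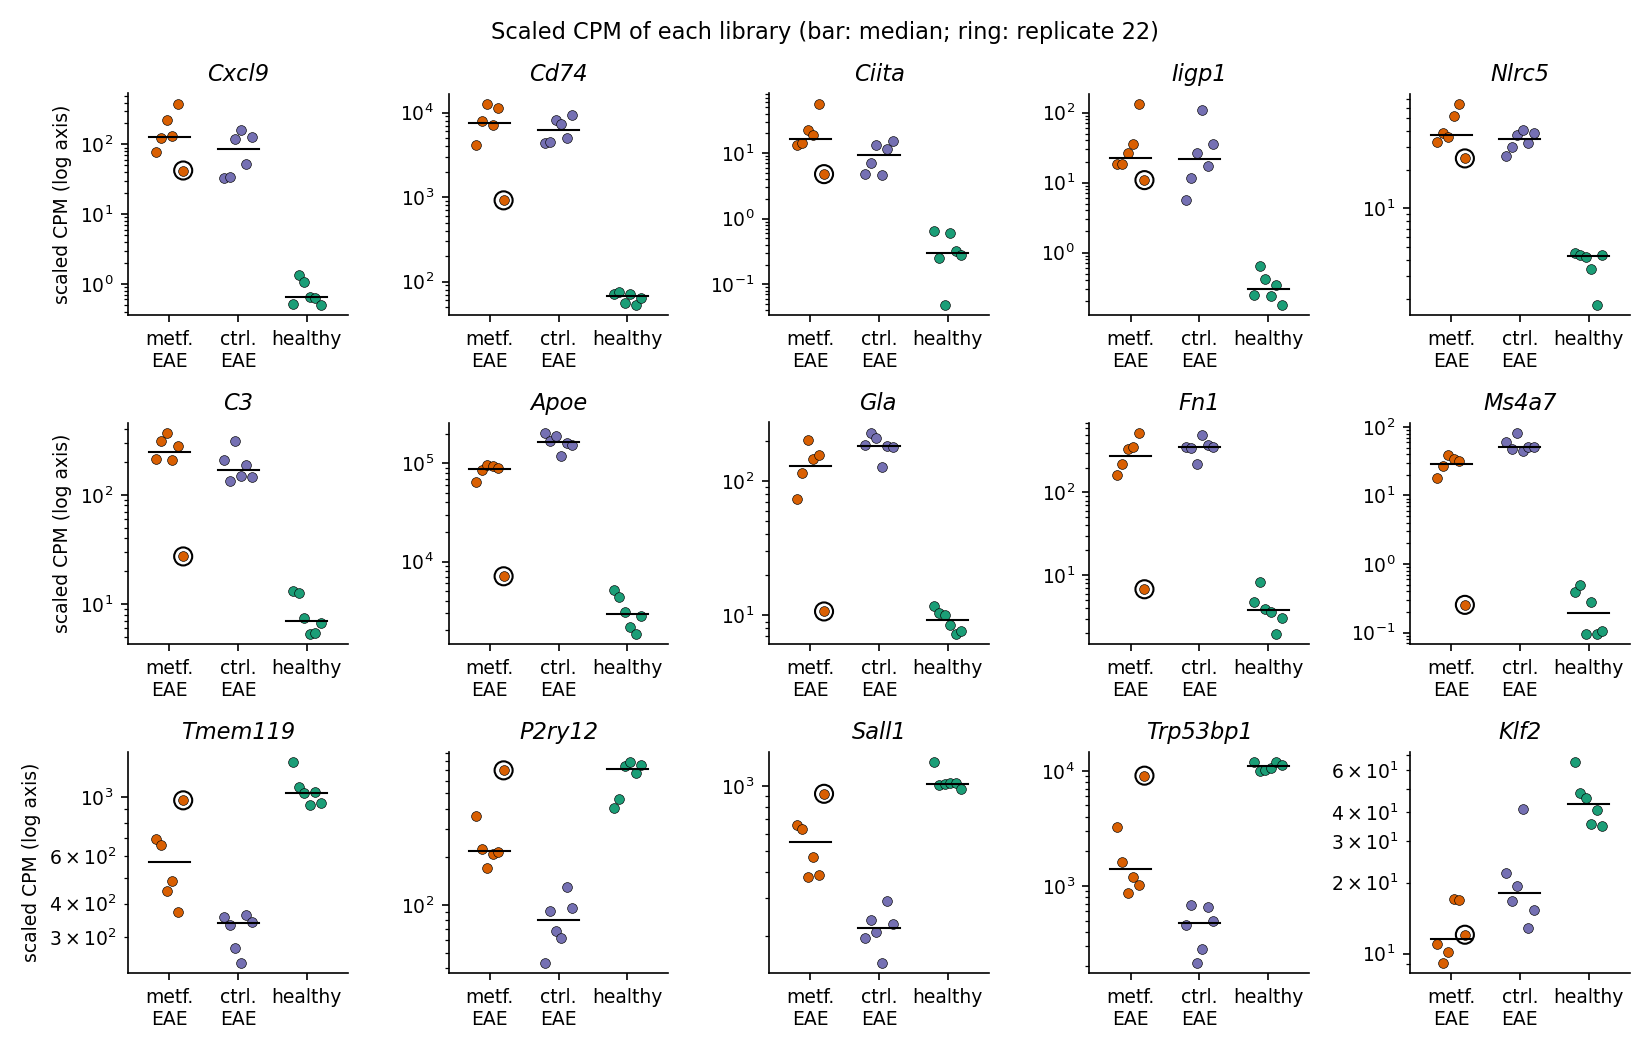
CPM (log axis) of 15 genes in each library, metformin EAE left, control EAE in the middle and healthy right, with a bar at the median and replicate 22 ringed. Replicate 22 lies above every healthy library for Cxcl9, Cd74, Ciita, Iigp1, Nlrc5, C3 and Apoe, and within the healthy range for Gla, Ms4a7, P2ry12, Tmem119 and Fn1.

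Chemokines, the attractants of leukocytes, remained raised: 10 of 14 passed as higher, Cx3cl1 as lower (Ccl9 as well without replicate 22), and the median log2 change was 2.28 (2.60 in control EAE). Ccl8, a monocyte attractant, had the largest log2 change against healthy of the genes named here, at 0.417, 17.8 and 38.9 CPM in metformin EAE libraries against 0, 0.0354 and 0.138 CPM in healthy libraries (log2 change 8.68 ± 1.20, adjusted p = 4.8e-05). Its lowest value, in replicate 22, rests on few counts. Ccl5, an attractant of T cells and monocytes, was at 12.4, 91.6 and 217 CPM in metformin EAE libraries against 1.18, 2.57 and 3.81 CPM in healthy libraries (log2 change 5.29 ± 0.71, adjusted p = 3.6e-05). Cxcl10 rose by a log2 change of 4.001 and Cxcl13, a B cell attractant, by 5.15. Acod1, which makes the antimicrobial metabolite itaconate, was at 4.89, 54.4 and 191 CPM in metformin EAE libraries against 0.0317, 0.182 and 0.464 CPM in healthy libraries (log2 change 8.62 ± 0.87, adjusted p = 4.3e-06), and Saa3, an acute-phase protein, rose as well (log2 change 8.20 ± 1.18, adjusted p = 6.7e-05). In 5 metformin EAE libraries the summed monocyte-derived markers, most of that sum being Fn1, were above healthy as well. The part of such cells in these results was not tested. Replicate 22 was above the highest healthy library in 7 of the 14 chemokines and below the lowest in 3, against 20.1% and 17.6% of all genes tested.

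Cytokine genes were mixed. Of 14 tested cytokines and their inhibitors Il1a, Il1b, Il1rn, Il18bp, Osm and Mif rose, and Il6 and Il16 fell. Of all genes tested 20.3% rose and 16.3% fell, and the share of falls in this list was near the latter. Il18bp, the secreted inhibitor of interleukin-18, was at 5.89, 76.6 and 138 CPM in metformin EAE libraries against 0.927, 1.46 and 2.04 CPM in healthy libraries (log2 change 5.62 ± 0.66, adjusted p = 1.4e-05). Il1rn, the interleukin-1 receptor antagonist, was at 7.47, 30.4 and 54.05 CPM in metformin EAE libraries against 2.53, 4.77 and 8.06 CPM in healthy libraries (log2 change 2.65 ± 0.39, adjusted p = 7.7e-05), with replicate 22 inside the healthy range, while Mif rose by 1.63 on the log2 scale. Tnf was listed at 0 in all 18 libraries.

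Among NF-kB subunits and feedback genes 12 of 16 rose and Nfkb1 fell (Rel as well without replicate 22), with a median of 0.55. Bcl3, a nuclear IkB protein, was at 18.7, 21.5 and 33.97 CPM in metformin EAE libraries against 3.802, 6.47 and 8.18 CPM in healthy libraries (log2 change 1.93 ± 0.23, adjusted p = 9.3e-06), and Nfkbiz, another nuclear IkB protein, at 3.82, 6.05 and 6.59 CPM in metformin EAE libraries against 1.46, 1.89 and 2.14 CPM in healthy libraries (log2 change 1.63 ± 0.17, adjusted p = 1.7e-06). In both genes the 6 metformin EAE libraries were above all healthy ones. Bcl2a1b, a survival gene with near-identical copies and so uncertain, rose too (log2 change 1.10 ± 0.12, adjusted p = 3.2e-06).

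Of 15 tested complement genes 10 rose and 2 fell, C5ar2 and Itgam. C3, the central component, was at 27.3, 248 and 372 CPM in metformin EAE libraries against 5.303, 7.05 and 13.2 CPM in healthy libraries (log2 change 4.80 ± 0.49, adjusted p = 4.7e-06) and C1ra, a protease of the first component, at 5.56, 21.6 and 35.5 CPM in metformin EAE libraries against 1.42, 1.72 and 3.495 CPM in healthy libraries (log2 change 3.32 ± 0.40, adjusted p = 1.4e-05). C4b was at 0 counts in all healthy libraries and at 0.364 CPM on average in metformin EAE libraries, at least 7.12-fold higher against a floor of 3 counts per library. It shares sequence with C4a, which makes its level uncertain. Cybb, the catalytic subunit of the phagocyte oxidase, rose to 42.2, 347 and 571 CPM in metformin EAE libraries, against 7.81, 12.5 and 20.1 CPM in healthy libraries (log2 change 4.76 ± 0.47, adjusted p = 3.2e-06). In the oxidase and antioxidant list 12 of 22 rose and Gclc fell, and the peroxiredoxin Prdx1 and thioredoxin reductase Txnrd1 rose by 1.45 and 0.94 on the log2 scale.

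Genes of disease-associated microglia, the set raised around damage and demyelination, stayed above healthy: 21 of 24 rose and none fell, with a median log2 change of 1.86 (2.04 without replicate 22, 2.52 in control EAE). Apoe (chr7:19696109-19699188), which carries lipid between cells, was at 7078, 87069.6 and 97192 CPM in metformin EAE libraries, 117858, 163380.0 and 205545 CPM in control EAE libraries and 1825, 2926 and 5107 CPM in healthy libraries. Against healthy the metformin change was large (log2 change 4.50 ± 0.46, adjusted p = 3.2e-06; without replicate 22, log2 change 4.74, adjusted p = 2.7e-11). Axl, a receptor tyrosine kinase for dying cells and debris, was at 234, 1085 and 1453 CPM in metformin EAE libraries against 74.2, 86.8 and 165 CPM in healthy libraries (log2 change 3.26 ± 0.34, adjusted p = 4.5e-06). In both genes replicate 22 was the lowest of the 6 and was above every healthy library. Spp1, osteopontin, and Gpnmb, a glycoprotein of lipid-laden macrophages, behaved differently in replicate 22. Spp1 was at 2852 to 8946 CPM in 5 metformin EAE libraries and 90.8 in replicate 22, against 64.6 to 230.1 CPM in healthy libraries (log2 change 5.29 ± 0.71, adjusted p = 3.6e-05). Gpnmb was at 1449 to 8371 CPM in 5 libraries and 35.9 in replicate 22, against 12.5 to 72.2 CPM in healthy libraries (log2 change 6.82 ± 0.92, adjusted p = 3.8e-05). The direct test called 8 of 24 members lower in metformin than in control EAE, none higher, with a median of -0.57 (again 8 lower and a median of -0.41 without replicate 22). Over all genes tested 12.1% were lower, or 9.84% without replicate 22. The direct call on Apoe (log2 change -1.19 ± 0.40, adjusted p = 0.039) was lost when any of 6 single libraries was left out, with an adjusted p of up to 0.073 without control EAE replicate 1. With only the 2 EAE groups in the fit that call was lost too (adjusted p = 0.067 by edgeR), and 3 of the 24 members were lower.

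Lipid efflux and storage genes rose in 19 of 23 cases, with none lower and a median of 1.94. Cd36, a scavenger receptor for oxidised lipid, was at 2.79, 24.4 and 40.9 CPM in metformin EAE libraries against 0.319, 0.665 and 0.9202 CPM in healthy libraries (log2 change 5.08 ± 0.54, adjusted p = 5.9e-06). Fabp5, a fatty acid carrier, was at 4.46, 43.9 and 75.4 CPM in metformin EAE libraries against 2.21, 2.86 and 3.36 CPM in healthy libraries (log2 change 4.01 ± 0.45, adjusted p = 9.4e-06). Both were without overlap, replicate 22 being the lowest. Against control EAE 12 of the 23 were lower (8 with only the 2 EAE groups in the fit) and 1 was higher. Over all genes tested 12.1% were lower and 12.5% higher.

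Lysosomal genes rose in 22 of 28 cases, with none lower (Lgmn was lower without replicate 22) and a median of 0.90 (1.35 in control EAE). Over all genes tested, metformin EAE was below control EAE in 12.1%, or in 9.84% without replicate 22. The direct test called 13 of the 28 lysosomal genes lower, or 9 without replicate 22. With library totals alone or only the 2 EAE groups in the fit, 5 were lower. Since TFEB and its relatives drive such genes through the letters TCACGTGA, 22 members with a RefSeq window were searched for them (the letters read the same on both strands). They stood in 6 of the 22 (27.3%), against 1.12% of 27025 genes with a window. The windows of the 3 matching members with the smallest p-values follow, with the matches in capitals.
Gla, chrX:134600956-134601255, minus strand: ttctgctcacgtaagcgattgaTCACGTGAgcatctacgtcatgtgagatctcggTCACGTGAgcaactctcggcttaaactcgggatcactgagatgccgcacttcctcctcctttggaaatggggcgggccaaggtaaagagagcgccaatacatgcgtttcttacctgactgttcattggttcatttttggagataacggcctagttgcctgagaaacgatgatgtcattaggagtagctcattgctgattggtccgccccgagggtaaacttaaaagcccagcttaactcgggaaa
Atp6v1a, chr16:44139210-44139509, minus strand: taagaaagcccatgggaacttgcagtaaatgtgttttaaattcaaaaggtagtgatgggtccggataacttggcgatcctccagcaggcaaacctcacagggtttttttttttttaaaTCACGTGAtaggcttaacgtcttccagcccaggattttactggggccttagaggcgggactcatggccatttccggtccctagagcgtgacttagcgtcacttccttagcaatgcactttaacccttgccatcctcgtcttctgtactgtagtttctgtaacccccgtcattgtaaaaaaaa
Ctsa, chr2:164833523-164833822, plus strand: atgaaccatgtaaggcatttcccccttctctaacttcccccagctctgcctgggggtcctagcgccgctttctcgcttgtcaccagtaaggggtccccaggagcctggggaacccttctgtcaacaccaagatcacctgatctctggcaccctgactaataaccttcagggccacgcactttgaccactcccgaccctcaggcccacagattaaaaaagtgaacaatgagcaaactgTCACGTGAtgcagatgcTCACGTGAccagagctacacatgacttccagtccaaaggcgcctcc

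Gla, alpha-galactosidase A, holds matches beginning 228 and 195 bases before the start, Atp6v1a, a subunit of the proton pump, a single match at 132 bases, and Ctsa, cathepsin A, matches that begin 13 bases before and 4 bases after the start. Gla was at 73.99 to 202 CPM in 5 metformin EAE libraries and 10.7 in replicate 22, against 7.25 to 11.7 CPM in healthy libraries (log2 change 3.66 ± 0.45, adjusted p = 1.9e-05). Atp6v1a was at 144 to 243 CPM in those 5 and 65.7 in replicate 22, against 56.9 to 65.8 CPM in healthy libraries (log2 change 1.51 ± 0.21, adjusted p = 3.1e-05). For Ctsa the 5 libraries held 1215 to 2041 CPM and replicate 22 held 708, against 610.2 to 733 CPM in healthy libraries (log2 change 1.13 ± 0.17, adjusted p = 5.8e-05). In all 3 genes replicate 22 was inside the healthy range and the other 5 were above it. Atp6v0d2, a proton pump subunit of macrophages and osteoclasts, was at 0.435, 39.4 and 66.2 CPM in metformin EAE libraries against 0.222, 0.315 and 0.425 CPM in healthy libraries (log2 change 6.91 ± 0.82, adjusted p = 1.5e-05). Its lowest metformin EAE value was barely above the highest healthy one and rests on few counts. Ctss, cathepsin S, which trims the invariant chain, was separated from healthy in all 6 libraries (log2 change 0.88 ± 0.12, adjusted p = 2.4e-05). The heparanase gene Hpse (log2 change 7.53 ± 0.80, adjusted p = 6.6e-06), the phosphatase gene Acp5 (log2 change 6.07 ± 0.73, adjusted p = 1.6e-05) and the adhesion receptor gene Slamf7 (log2 change 6.87 ± 0.68, adjusted p = 3.4e-06) were among the 12 largest separated rises.

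Homeostatic genes stayed below healthy: of 19 tested members 15 fell and 1 rose, with a median log2 change of -0.71 (-0.70 without replicate 22, -1.62 in control EAE). P2ry12 was at 171, 218 and 696 CPM in metformin EAE libraries, 43.1, 79.8 and 129.8 CPM in control EAE libraries and 403, 705 and 789.8 CPM in healthy libraries. Its change against healthy (log2 change -1.03 ± 0.33, adjusted p = 0.021) was lost when any of 3 single libraries was left out, with an adjusted p of up to 0.052 without metformin EAE replicate 21, and was larger without replicate 22 (log2 change -1.43, adjusted p = 2.3e-04). Tmem119, the marker on which the mouse line rests, was at 373, 573 and 970.2 CPM in metformin EAE libraries, 239.8, 338 and 363 CPM in control EAE libraries and 928, 1037 and 1353 CPM in healthy libraries (log2 change -0.82 ± 0.18, adjusted p = 0.0018 for metformin EAE against healthy). For P2ry12 and Tmem119 replicate 22 lay inside the healthy range and the other 5 metformin EAE libraries below it. Among the microglia markers Sparc (log2 change -1.15 ± 0.18, adjusted p = 6.5e-05) and Selplg (log2 change -1.12 ± 0.23, adjusted p = 8.4e-04) were below healthy in all 6 libraries, as were Csf1r, the receptor for the survival factor CSF1, at 2865, 3982 and 6925 CPM in metformin EAE libraries against 7082, 7336 and 9194 CPM in healthy libraries, and Sall1, the factor that keeps microglial identity, at 379, 550.4 and 922 CPM in metformin EAE libraries against 974, 1028 and 1303 CPM in healthy libraries (log2 change -0.89 ± 0.19, adjusted p = 0.0012). Metformin EAE was above control EAE in 13 of the 19 and below it in none, with a median of 0.89 (12 of the 19 and a median of 0.70 without replicate 22). Over all genes tested 12.5% were higher and 12.1% lower. With library totals alone, 4712 of all genes were higher and 616 lower in this contrast, so counts of higher genes depend on the scaling.

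The largest falls shared by all 6 libraries lay mostly outside these lists. Sema4b, a semaphorin, was at 2.14, 2.59 and 5.51 CPM in metformin EAE libraries against 20.7, 23.4 and 37.5 CPM in healthy libraries (log2 change -3.16 ± 0.22, adjusted p = 2.7e-08), and control EAE was lower by a similar size (log2 change -3.09). Nrarp, a target and inhibitor of Notch signalling, was at 1.15, 1.95 and 4.97 CPM in metformin EAE libraries against 11.1, 13.7 and 19.99 CPM in healthy libraries (log2 change -2.62 ± 0.25, adjusted p = 1.0e-06). Pecam1, an adhesion molecule of endothelial and blood cells, was at 1.83, 4.06 and 12.4 CPM in metformin EAE libraries against 21.6, 24.1 and 35.2 CPM in healthy libraries (log2 change -2.42 ± 0.34, adjusted p = 4.0e-05). Replicate 22 was the highest metformin EAE library in all 3 genes. That it lay below the healthy ones was required by the choice of these falls. Bank1, Klhdc8b, Tlr5, Upk1b, Gp9, Kcnk12, Thsd1, Gimap6 and Lrba complete the 12, with log2 changes from -2.92 for Bank1 to -2.26 for Lrba. Klf2, an anti-inflammatory transcription factor, was at 9.104, 11.5 and 17.01 CPM in metformin EAE libraries, 12.8, 18.03 and 41.1 CPM in control EAE libraries and 34.9, 43.3 and 65.4 CPM in healthy libraries. Metformin EAE was below healthy (log2 change -1.83 ± 0.25, adjusted p = 3.4e-05) and below control EAE (log2 change -0.74 ± 0.25, adjusted p = 0.035), the second call being lost when any of 6 single libraries was left out and with library totals alone (adjusted p = 0.11 by edgeR).

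Transcription factors of microglia moved both ways, while in the TGF-beta pathway, which keeps microglia homeostatic, more genes fell than rose. Of 17 tested microglial transcription factors 6 rose, among them Runx1, Bhlhe40, Bhlhe41, Mitf and Tfec, and Sall1, Sall3, Smad2, Smad3 and Maf fell. Both shares were above those of all genes tested, 20.3% higher and 16.3% lower. Bhlhe40 was at 136 to 259 CPM in 5 metformin EAE libraries and 19.3 in replicate 22, against 14.2 to 29.4 CPM in healthy libraries (log2 change 3.02 ± 0.42, adjusted p = 5.4e-05), so replicate 22 lay inside the healthy range. Maf, a factor of tissue macrophages, was below healthy in all 6, at 197, 264 and 377 CPM in metformin EAE libraries against 469, 499 and 619.6 CPM in healthy libraries (log2 change -0.89 ± 0.14, adjusted p = 7.5e-05). Of 18 tested TGF-beta genes Smad2, Smad3, Smad7 and Eng fell and Ltbp1 rose, with a median of -0.11, and 10 fell with library totals alone. The share of falls was not far from the 16.3% of all genes tested, and that of rises was below their 20.3%. Eng, a co-receptor, was at 50.2, 67.2 and 96.7 CPM in metformin EAE libraries against 126, 136 and 154 CPM in healthy libraries (log2 change -0.98 ± 0.14, adjusted p = 3.3e-05).

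Fewer genes of the respiratory chain passed in metformin EAE than in control EAE. Of 35 tested genes of respiratory complex I, the first proton pump of the mitochondrial chain and the complex metformin inhibits, 7 rose and none fell against healthy, with a median of 0.17. That share of rises is about the 20.3% of all genes tested, and 11 rose without replicate 22 (23.9% of all genes then). In control EAE 31 rose and 1 fell, with a median of 0.66. Metformin EAE was below control EAE in 12.1% of all genes tested and above it in 12.5%. Among the 35 it was below in 26 (23 without replicate 22) and above in none. These counts depended on the scaling: with library totals alone 1 member rose and 1 fell against healthy, 12 rose in control EAE, and 7 were lower in metformin than in control EAE. Ndufa1, a complex I subunit, was at 30.9, 52.02 and 63.7 CPM in metformin EAE libraries, 70.7, 82.4 and 114 CPM in control EAE libraries and 26.1, 32.3 and 36.9 CPM in healthy libraries (log2 change 0.68 ± 0.15, adjusted p = 0.0014 for metformin EAE against healthy, and log2 change -0.75 ± 0.15, adjusted p = 0.0024 for metformin against control EAE). The other chain complexes and the ATP synthase showed 13 higher and Atp5g1 lower of 35 tested (20 higher without replicate 22), against 30 higher and 1 lower in control EAE, and 3 higher and 2 lower in metformin EAE with library totals alone. Of the genes of mitochondrial DNA, none of 7 tested passed and 5 fell without replicate 22, mt-Nd1, mt-Nd4, mt-Nd5, mt-Cytb and mt-Co1. mt-Cytb was at 241 to 423 CPM in 5 metformin EAE libraries and 1361 in replicate 22, the highest library, against 308 to 1033 CPM in healthy libraries (without replicate 22, log2 change -1.18, adjusted p = 0.0047). Healthy replicates 3 and 4 were the low ones, at 356 and 308 CPM. Of 71 tested ribosomal protein genes 15 rose, again near the 20.3% of all genes, and Rpl5 fell, with a median of 0.18, against 52 higher in control EAE. In metformin EAE 29 were lower than in control EAE, or 25 without replicate 22, shares above the 12.1% and 9.84% of all genes tested. With library totals alone 6 rose and 4 fell against healthy, and 8 were lower than in control EAE. Rpl22, the gene that carries the tag, was at 70.9, 80.7 and 93.9 CPM in metformin EAE libraries against 66.1, 69.5 and 78.7 CPM in healthy libraries and missed the threshold (log2 change 0.21 ± 0.08, adjusted p = 0.054). It was called when any of 4 single libraries was left out, replicate 22 among them (without it, log2 change 0.25, adjusted p = 0.019 by edgeR). Ribosomal protein genes have many near-identical pseudogenes, which makes their levels uncertain. The direction of Rpl22 against healthy turned with library totals alone.

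Glycolysis, the pathway from glucose to lactate, was raised in part: 14 of 22 rose and Hk1, Pfkm, Aldoc, Eno2 and Ldhb fell, of which Aldoc and Eno2 also served as markers of astrocytes and neurons. Tpi1 was at 337 to 500.3 CPM in 5 metformin EAE libraries and 151 in replicate 22, against 140.3 to 172 CPM in healthy libraries (log2 change 1.22 ± 0.19, adjusted p = 7.0e-05). Hif1a, the hypoxia-inducible factor that drives the pathway, was at 67.8, 178 and 238 CPM in metformin EAE libraries against 38.5, 48.6 and 53.5 CPM in healthy libraries (log2 change 1.83 ± 0.24, adjusted p = 2.0e-05), with replicate 22 lowest and above healthy. Fatty acid oxidation genes rose in 9 of 19 cases and Acads fell (20.3% higher and 16.3% lower over all genes tested). Acadl, a dehydrogenase of that pathway, rose in all 6 libraries (log2 change 1.07 ± 0.14, adjusted p = 1.8e-05). In the integrated stress response, which cells start when translation is slowed, 10 of 24 rose, among them Psat1 (log2 change 1.28 ± 0.18, adjusted p = 2.8e-05) and Trib3, and Ddit4, Phgdh and Slc7a5 fell (5 fell without replicate 22). That share of falls was not far from the 16.3% of all genes tested, while that of rises was above 20.3%. Ddit4, an inhibitor of mTOR, was below control EAE as well (log2 change -0.95 ± 0.21, adjusted p = 0.0042), and its call against healthy was lost when either of 2 single libraries was left out.

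Of 11 tested genes of AMPK and its upstream kinases, Prkab1, Prkag2, Camkk1 and Camkk2 fell and none rose, and 6 fell with library totals alone. Prkab1, a beta subunit of AMPK, was at 46.8, 53.5 and 95.03 CPM in metformin EAE libraries against 88.8, 111 and 121 CPM in healthy libraries (log2 change -0.84 ± 0.18, adjusted p = 0.0013). Control EAE was lower as well (log2 change -1.35). In the mTOR pathway, a growth pathway that AMPK restrains, Rps6kb1, Eif4ebp1, Rragc and Sesn2 rose and 6 of 19 fell, among them Rptor (log2 change -0.72 ± 0.17, adjusted p = 0.0025), and 10 fell with library totals alone. RNA levels give no measure of kinase activity. Cholesterol synthesis genes were split, with Pmvk, Mvd, Hsd17b7, Dhcr7 and Insig1 higher and 3 lower, among them Sqle and Srebf2, of 21 tested (1 higher and 4 lower with library totals alone). Of 21 tested autophagy genes Atg5, Atg7, Atg12 and Sqstm1 were higher and Atg4b, Atg9a and Map1lc3a lower, against 2 higher and 8 lower with library totals alone. For cholesterol synthesis and autophagy the shares called were close to those of all genes tested, 20.3% higher and 16.3% lower. The share of rises in the mTOR list was also close to 20.3%, while the shares of falls in the AMPK and mTOR lists were above 16.3%.

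Genes of growth and chromatin were called in both directions. Of 29 tested proliferation genes Cdk1, Ccnb1, Aurkb, Pcna and Mcm6 rose and Ccnd1 fell, and without replicate 22, which lay below the lowest healthy library in 21 of the 29, Aurka, Bub1 and Rrm2 rose too, making 8. The share of rises was near that of all genes tested, 20.3%, or 23.9% without replicate 22. Mki67, a marker of cycling cells, was not called (log2 change 0.63, adjusted p = 0.50 by edgeR). Of 18 immediate-early transcription factors 6 rose, such as Maff and Ier2, and Jun, Ier5 and Klf2 fell, the call on Jun being lost without replicate 22 (log2 change -0.25, adjusted p = 0.068 by edgeR). Of all genes tested 20.3% rose and 16.3% fell, so the share of falls in this list was near that of all genes. Kdm6a, the gene the series turns on, was at 5.55, 6.88 and 8.17 CPM in metformin EAE libraries against 3.82, 8.07 and 10.4 CPM in healthy libraries and was not called (log2 change -0.18 ± 0.23, adjusted p = 0.57). Kdm6b, the other H3K27 demethylase of the list, fell in all 6 libraries, to 8.91, 10.5 and 19.2 CPM in metformin EAE libraries, against 21.2, 24.4 and 32.01 CPM in healthy libraries (log2 change -1.08 ± 0.16, adjusted p = 4.1e-05). Suz12 and Rbbp7, subunits that accompany the opposing methyltransferase, rose by log2 changes of 0.60 and 0.31, the call on Suz12 being lost when any of 3 single libraries was left out. With library totals alone neither was called. Jarid2, of the same list, fell without replicate 22.

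**Figure D4:**
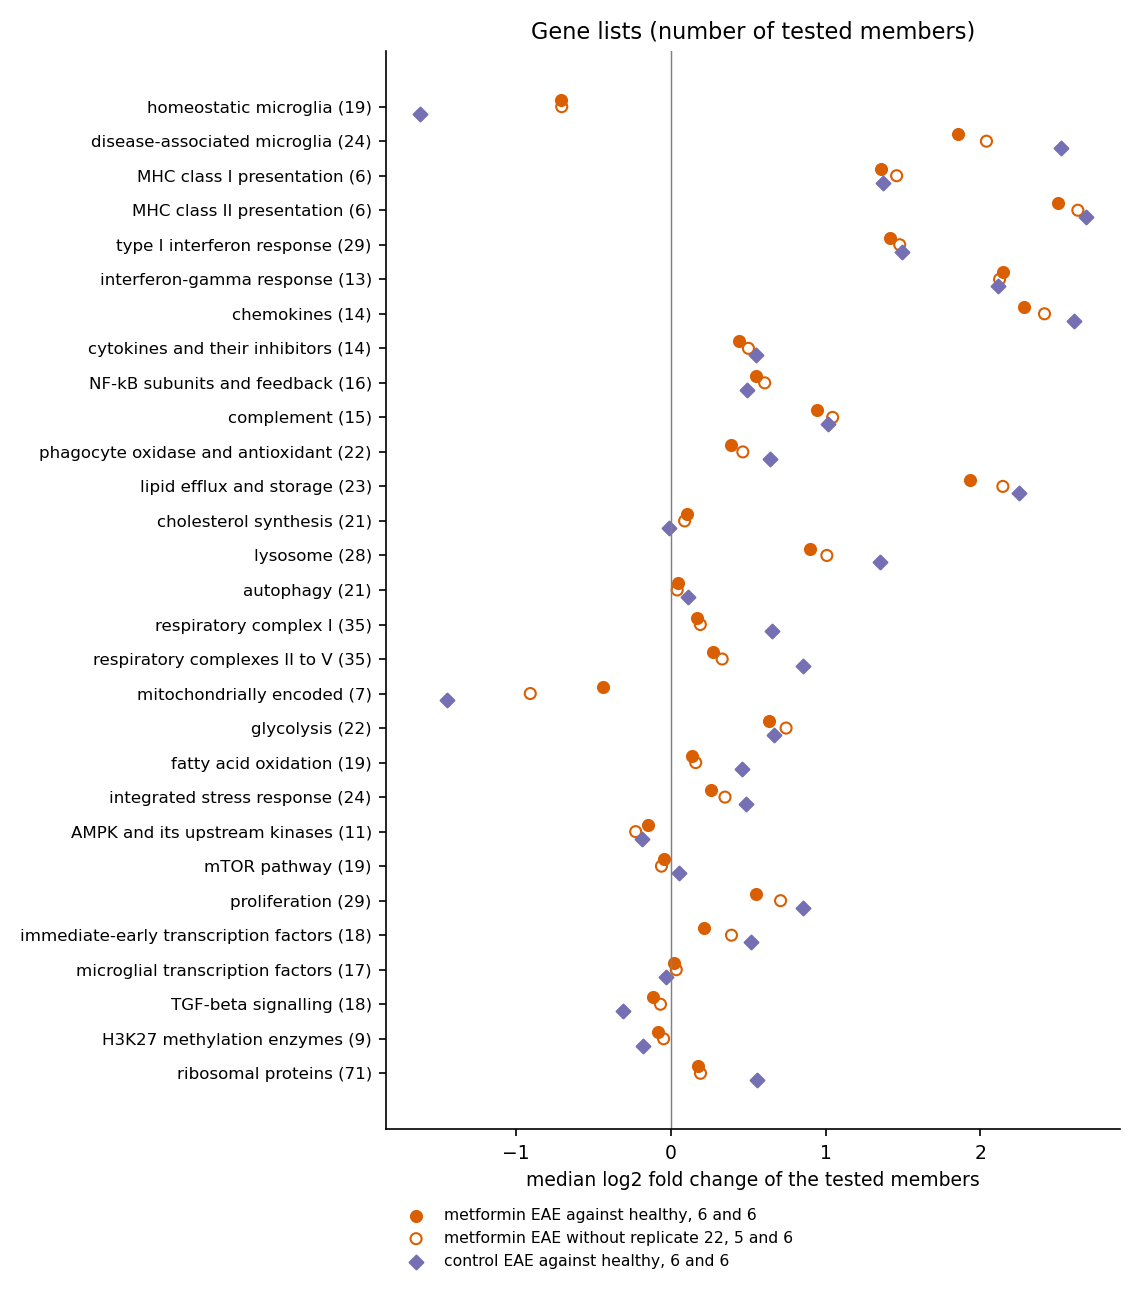
Median log2 change of the tested members (number in brackets) of 29 gene lists, for metformin EAE against healthy with replicate 22 (filled circles) and without it (open circles), and for control EAE against the same healthy libraries (diamonds). For interferon-gamma response genes the medians are 2.15, 2.12 and 2.11, and for respiratory complex I 0.17, 0.19 and 0.66.

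Some genes were set apart from control EAE as well as from healthy. Of the 761 rises that were separated in all 6 libraries and called with and without replicate 22, the 10 with the smallest p-values against control EAE were taken, and 6 of them were higher in metformin than in both other groups: Atp8a1, Il13ra1, Birc3, Dtx3l, Gpr35 and Tbc1d8. Gpr35, a receptor for lysophosphatidic acid and kynurenic acid, was at 50.8, 62.3 and 76.3 CPM in metformin EAE libraries, 39.6, 43.7 and 48.7 CPM in control EAE libraries and 28.4, 32.8 and 34.3 CPM in healthy libraries (log2 change 0.95 ± 0.09, adjusted p = 1.0e-06 against healthy and log2 change 0.50 ± 0.09, adjusted p = 0.0019 against control EAE). Atp8a1, a flippase of membrane lipids, was at 127, 146 and 158 CPM in metformin EAE libraries, 81.4, 97.1 and 109 CPM in control EAE libraries and 100.2, 105 and 112 CPM in healthy libraries (log2 change 0.46 ± 0.08, adjusted p = 3.7e-04 against healthy). Il13ra1, a receptor chain for interleukins 4 and 13, was at 114, 124 and 149 CPM in metformin EAE libraries, 60.3, 84.5 and 95.2 CPM in control EAE libraries and 90.7, 104 and 107 CPM in healthy libraries (log2 change 0.60 ± 0.10, adjusted p = 0.0012 against control EAE). In these 3 genes the 6 metformin EAE libraries lay above all healthy libraries, while control EAE was not called against healthy in Atp8a1 (log2 change -0.13, adjusted p = 0.20 by edgeR) and was below it in Il13ra1. With library totals alone the calls against healthy on Atp8a1, Birc3 and Il13ra1 were lost (adjusted p = 0.062, 0.064 and 0.45 by edgeR), while those against control EAE held for all 6. The other 4 of the 10, Chchd10, Mrps24, Rcc1l and Jmjd8, lay between healthy and control EAE, and the calls on Mrps24 and Jmjd8 against healthy were lost in some leave-one-out fits. The 10 falls chosen in the same way from 710, Sall1, Tppp, Cass4, Adora3, Btbd3, Cep68, Arhgef6, Cbl, Rasgrf2 and Ets1, all lay between control EAE and healthy. Ets1, a transcription factor, was at 68.04, 93.6 and 179 CPM in metformin EAE libraries, 35.6, 46.3 and 60.5 CPM in control EAE libraries and 203, 220.0 and 249.8 CPM in healthy libraries (log2 change -1.12 ± 0.19, adjusted p = 2.2e-04 against healthy, and log2 change 1.16 ± 0.19, adjusted p = 0.0013 against control EAE).

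Replicate 22 differed from the healthy libraries in some gene groups more than in others. It was above the highest healthy library in 23 of 29 type I interferon genes, 11 of 13 interferon-gamma genes, all 6 class I genes, 5 of 6 class II genes and all 7 mitochondrially encoded genes, against 20.1% of all genes tested. The same held for 6 of 24 disease-associated genes, near that share. Other lists were above the 20.1% too, such as 9 of 16 NF-kB genes, 7 of 16 neuron markers and 5 of 10 astrocyte markers. Replicate 22 lay below the lowest healthy library in 21 of 29 proliferation genes, against 17.6% of all genes tested. Several lists held smaller shares above 17.6%, such as 9 of 18 TGF-beta, 9 of 21 autophagy, 8 of 18 immediate-early, 8 of 19 homeostatic and 7 of 19 mTOR genes. Of the homeostatic genes 2 were above healthy, and their median log2 value was -0.06. Among 9393 genes with a symbol and at least 5 CPM, it was more than 2-fold above the highest healthy library in 41 and more than 2-fold below the lowest in 14, against 288 to 511 and 68 to 307 in the other 5. Cxcl9, at 22.99 times the highest healthy library after adding 0.5 CPM to both, headed the 41, followed by Cd74 (11.9 times) and Iigp1 (9.97 times). The 14 were headed by Sema4b, at 0.28 times the lowest healthy library, and included Klf2 at 0.35 times. The median log2 value of replicate 22 against the healthy mean was 1.79 over the interferon-gamma genes, 0.86 over the mitochondrially encoded genes, 0.11 over the disease-associated genes and -0.46 over the proliferation genes. The 10 genes of these 9393 whose log2 change against healthy moved most when replicate 22 was left out were Zfp318, Trp53bp1, Mrc2, Itga9, Tlr5, Gp9, mt-Tl1, Tro, Erich3 and Bcar1, of which Zfp318, mt-Tl1, Tro and Erich3 were called only without it. Trp53bp1, a DNA repair protein gene, overlaps Tubgcp4 on the opposite strand, and no source used here names the strand setting of the counting. It was at 859 to 3258 CPM in 5 metformin EAE libraries and 9072 in replicate 22, against 9964 to 12027 CPM in healthy libraries (log2 change -1.95 ± 0.50, adjusted p = 0.0058; without replicate 22, log2 change -2.79, adjusted p = 4.2e-06).

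**Figure D5:**
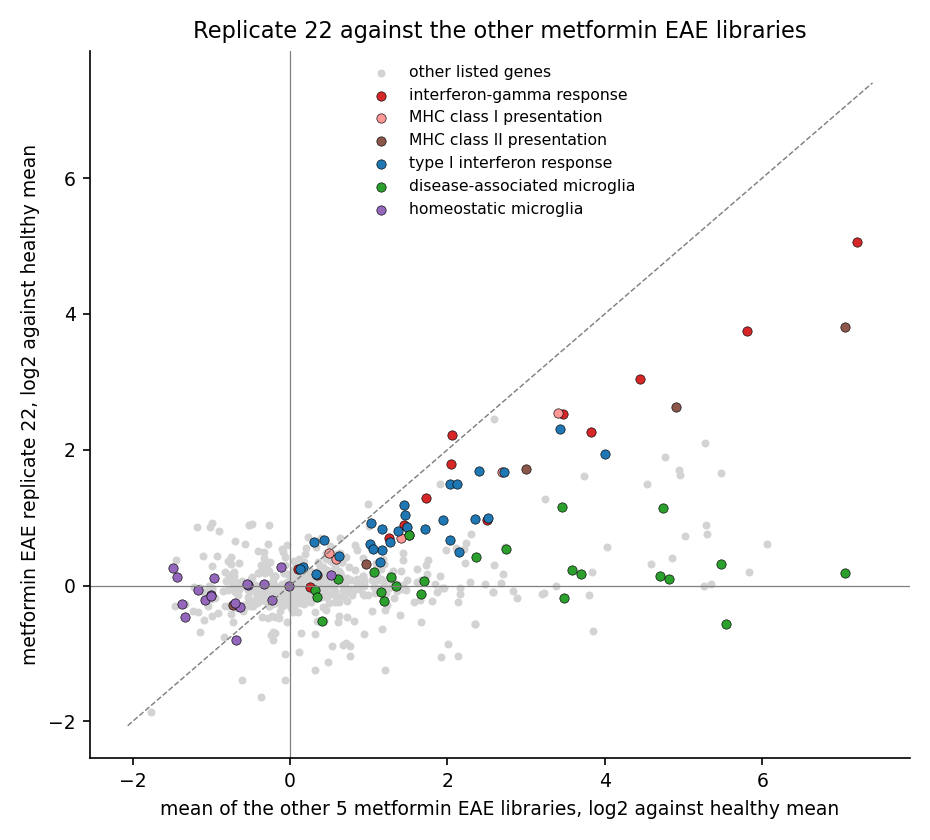
Log2 level against the healthy mean (0.5 CPM added) in metformin EAE replicate 22 (vertical axis) and in the mean of the other 5 metformin EAE libraries (horizontal axis), with 1 point per listed gene, 6 lists coloured and the dashed line marking equal values. Most interferon-gamma, type I interferon and MHC genes lie above 0 on both axes, while the disease-associated genes have a median of 0.11 in replicate 22.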

How the data were processed

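The values are read counts per gene that the authors deposited as 1 table of 18 libraries, with whole numbers and no normalization, per the file headers and values. Per the submitters' processing notes, bcl2fastq 2.17, FastQC and Trimmomatic were used with the mm10 build, and per the labels' protocols the libraries came from a stranded kit with mRNA enrichment. The aligner, the counting tool and a strand setting were not given in the sources used here. Of 39017 genes, 37693 got a symbol from the GENCODE M21 annotation, and 14191 were at 0 in all 18 libraries. Since genes that every cell uses are among those, a 0 there may be a failed estimate.

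Genes were kept by edgeR's filterByExpr (minimum count 10, minimum total 15), which left 16740. Counts were scaled by TMM and all 18 libraries were fitted together with edgeR 4.0.16 (robust quasi-likelihood test, Benjamini-Hochberg adjustment, called under 0.05) in R 4.3.3 with limma 3.58.1, so that the 3 groups share 1 estimate of the spread. The alternatives were DESeq2 1.42.0, its size factors, library totals alone, no filter, only the groups compared, the run of consecutive label numbers as a term, and each library left out in turn. Scripts were tested on simulated data. No 2 libraries of a group agreed within sampling noise (lowest chi-square per degree of freedom 14.8). Floors cover counting error only, while the standard errors also take in the spread between libraries.

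Groups were taken from the labels. The genes named are the 12 largest separated rises and falls, the 3 members of each of 43 lists with the smallest p (2 for other cell types), the 10 genes that moved most without replicate 22, the 10 rises and 10 falls with the smallest p against control EAE, and Kdm6a, Kdm6b, Xist, Tmem119, P2ry12, Rpl22 and Apoe. A few further members are named as examples, chosen after their values were seen. The contrast, its lists and these rules were chosen with earlier results of these data known. Results on a few genes of these lists are not reported here.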

Additional observations from a re-analysis of the deposited data

Results flagged for a closer look

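For each of 174 genes, the highest and lowest library of each group of 6 was tested for standing apart from the rest by Dixon's criterion. Of 348 gene and group pairs, 63 had such a library. Chance alone would give about 1 in 20 pairs, but that rate does not apply here, since most of the genes were chosen by their values, 10 of them, all among the 63, for how far replicate 22 moved them. Genes that move together are not separate evidence. Values are CPM.

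Metformin EAE replicate 22 accounts for 38 of the 63. It was the high library among the metformin EAE libraries for 26 genes, most of them lower in EAE than in healthy mice: Sema4b (5.51), Tlr5 (4.28), Gp9 (23.4), Nrarp (4.97), Pecam1 (12.4), Thsd1 (3.17), mt-Cytb (1361), mt-Co1 (1761), mt-Nd4 (608), Kdm6b (19.2), Eno2 (75.3), Tubb3 (42.4), Sox10 (23.4), Olig1 (32.7), Drp2 (6.36), Zfp318 (69.8), Trp53bp1 (9072), Mrc2 (60.6), Itga9 (66.2), mt-Tl1 (18.5), Tro (45.6), Erich3 (16.2), Bcar1 (5013), Btbd3 (16.9), Xist (42.1) and P2ry12 (696). It was the low library for 12 genes, which were higher in the other 5: B2m (4130), Apoe (7078), Bcl2a1b (32.6), Prdx1 (72.8), Txnrd1 (56.7), Ctss (5630), Ndufb6 (8.25), Atp5f1 (37), Maff (3.86), Rbbp7 (30.8), Rpl39 (2.61) and Rps23 (0.435). The same library lay beside the healthy ones on the first principal component. The cause was not tested.

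Metformin EAE replicate 21 was the high library for Iigp1 (135), Ciita (57), Gbp2 (481), Suz12 (22.9), Nos2 (7.2), Birc3 (46.2) and Irf1 (334). Replicate 6 was the high library for the plasma cell genes Igkc (63.6) and Jchain (6.51).

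Among the healthy libraries, replicate 3 was high for Prkag2 (29.3), Pcna (15.7), Tfec (0.214), Smad3 (317), Alas2 (0.803), Mrps24 (33.9), Sall1 (1303) and Csf1r (9194), and low for Drp2 (3.57). Healthy replicate 4 was high for Itm2a (3.77), Cd3e (0.0354) and Irf1 (62.7), and healthy replicate 12 for Ccl8 (0.138), Sesn1 (109), Igkc (0.568) and Cxcl13 (2.79).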

How the results depend on the processing

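No direction of the genes given against healthy turned under DESeq2, median-of-ratios scaling, no filter on low counts, only the groups compared or the run of consecutive label numbers as a term (with only the groups compared, Alas2, S100a8, Mmp8, Jchain and Cd3e did not pass the filter on low counts), and DESeq2 and median-of-ratios scaling kept all 174 of them on their side of the threshold. Library totals alone kept 158 of 174. They gave 1927 higher and 4786 lower genes for metformin EAE against healthy (884 lower by at least 2-fold), 2604 and 8649 for control EAE against healthy, and 4712 and 616 for metformin against control EAE. They also moved the median of all genes to -0.20, -0.42 and 0.23 in these contrasts. Directions that turned with totals alone were those of Jmjd8 (-0.0032), Rpl22 (-0.000269) and Xist (-0.094, not called). Leaving out single libraries, Xist ran from -0.48 (without metformin EAE replicate 22, and -0.19 without healthy replicate 3) to 0.21, and Alas2 from -1.04 to 0.28 (without healthy replicate 3). Neither was called, and the cause was not tested. With only the 2 EAE groups in the fit, which then holds fewer libraries, 1292 genes were higher in metformin than in control EAE. Leaving out 1 library at a time gave 2884 to 4031 higher and 2092 to 3790 lower genes against healthy, and 1094 to 1438 and 348 to 1085 past 2-fold, the highest lower counts (3790 and 1085) being those without metformin EAE replicate 22. The same gave 5106 to 5443 and 4908 to 5288 for control EAE against healthy, and 1435 to 2196 and 1596 to 2109 for metformin against control EAE. No paired analysis was possible because the 3 groups share no replicate numbers, but each run of consecutive label numbers holds 2 libraries of every group, and a fit with the run as a block gave 3626 higher and 3074 lower genes against healthy. Genes under about 1 CPM, such as Ccl8 in healthy libraries, rest on few counts.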
